A study of Drosophila melanogaster with 6 samples.

Results

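The comparison described here sets Hlc dsRNA 3 against Hlc dsRNA 2, a pair of double-stranded RNAs (dsRNAs) aimed at the same gene, in S2 cells. Its members are the 4 libraries labelled with either Hlc dsRNA, of the 6 libraries in the series. The comparison covers every feature in the deposited table, of which 11293 of 23882 passed a filter on counts and were tested. S2 is an established cell line grown from Drosophila melanogaster embryos. The study took poly(A) RNA from these cells 3 days after dsRNA and asked how loss of Hlc changes transcription, chiefly of stress-responsive genes. The 3 groups were control cells given dsRNA to beta-gal, cells given Hlc dsRNA 2, and cells given Hlc dsRNA 3. Each group has 2 libraries, given as biological replicates by the submitters. No genotype other than the knockdown is stated, the dsRNA sequences are not used here, and the stretch of the Hlc transcript that each dsRNA covers is not known from the labels.

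Hlc is a DEAD-box protein, one of a family of enzymes that use ATP to remodel RNA and RNA-protein complexes. In fly cells a long dsRNA is cut by Dicer-2 into short interfering RNAs, which guide Argonaute 2 to matching transcripts. A pair of dsRNAs to different stretches of a gene therefore share the target but not the short RNAs made from them. A transcript that differs between such a pair is one whose level differed between the cells given each reagent. Whether the dsRNA or another difference between the libraries lay behind it was not tested. The gene prtp was named as an example of such a transcript when the comparison was set up, with earlier results of these data known.

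Both dsRNAs lowered Hlc to a similar level. Levels are given as CPM, counts scaled to a common library size that was adjusted for composition by the TMM method. The gene Hlc lies on the minus strand of chromosome X at 21385518 to 21387946 (FBgn0001565), and its control libraries held 317 and 316 CPM. It was at 16.1 and 19.7 CPM in replicates 1 and 2 with dsRNA 2, and 20.02 and 19.2 CPM with dsRNA 3. The Hlc groups overlapped and held 5.65% and 6.20% of the control mean. The log2 difference of dsRNA 3 minus dsRNA 2 was 0.14, with a standard error (SE) of 0.09 and a 95% interval from -0.08 to 0.35. It did not pass the test (adjusted p = 0.456, edgeR quasi-likelihood test). Without dsRNA 2 replicate 1 the difference was -0.0015. The genes on either side of Hlc, slgA and mst, had log2 differences of 0.24 and -0.03 (adjusted p = 0.102 and 0.798, edgeR).

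Few features passed the test between the reagents. A feature was called when its p, adjusted by the Benjamini-Hochberg method over all 11293 features tested, was under 0.05 in the edgeR test. Between the dsRNAs 9 features were called, which is 0.0797% of those tested, with 2 higher (0.0177%) and 7 lower (0.062%) in dsRNA 3. Of these, 1 was past 2-fold in each direction (0.00886% each). Against the shared controls, 6852 features were called with dsRNA 2 (60.7%, 30.4% higher and 30.3% lower) and 6954 with dsRNA 3 (61.6%, 29.9% higher and 31.6% lower). The median absolute log2 difference between replicates was 0.114 in the controls, 0.0797 with dsRNA 2 and 0.115 with dsRNA 3, over 8847 features. Between the means of the 2 reagents it was 0.148, and against the control mean it was 0.595 for dsRNA 2 and 0.605 for dsRNA 3. The last 3 values compare means of 2 libraries, which vary less than the single libraries behind the values for replicates.

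The number called depended on the test. At an unadjusted p under 0.05, 2298 features (20.3%) differed, 1019 higher and 1279 lower. The features ranked next, 48 in all, share an adjusted p of 0.0586, just past the threshold, and 433 had an adjusted p under 0.10 (3.83%). DESeq2 called 1228 features on the same counts (10.9%, 5.14% higher and 5.73% lower), and limma-voom called 327 (2.9%, 1.05% higher and 1.84% lower). With 2 libraries a group the fit had 3 residual degrees of freedom, so few calls does not show that few transcripts differ. Size is better bounded than number: for 8007 features (70.9%) the 95% interval of the difference lay within 2-fold either way. That share was 99.4% above 100 CPM, 98.4% from 10 to 100 CPM, 75.6% from 1 to 10 CPM and 3.78% below 1 CPM, so a 2-fold difference was not detectable for most of the rarest transcripts.

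**Figure D1:**
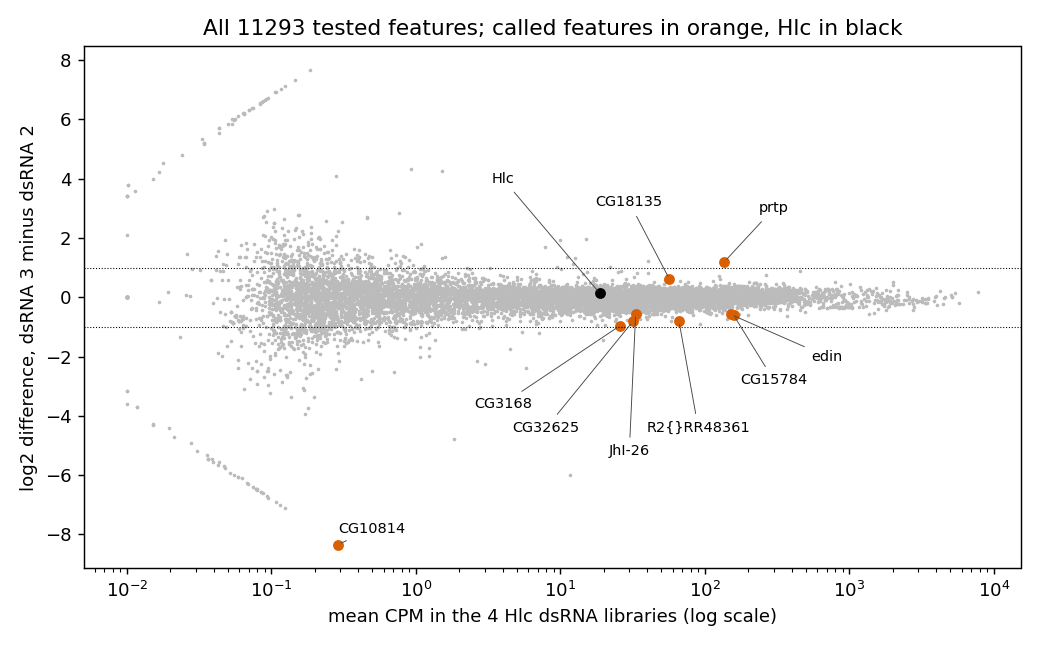
Each point is 1 of the 11293 tested features, with the mean CPM in the 4 Hlc libraries on a log axis and the log2 difference of dsRNA 3 minus dsRNA 2 on the vertical axis. Dotted lines mark 2-fold; above 10 CPM nearly all points lie between them, prtp is above the upper line, and CG10814 is drawn at its fitted value, which is not a bound.

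The clearest difference between the reagents was prtp. It encodes Pretaporter, a protein of the endoplasmic reticulum that moves to the surface of dying cells and is a ligand there for the engulfment receptor Draper. In the controls prtp (FBgn0030329, chromosome X, 11716756 to 11719894, plus strand) stood at 221 and 204 CPM. With dsRNA 2 it was 80.8 and 84.8 CPM, and with dsRNA 3 it was 190.4 and 189.8 CPM. Each dsRNA 3 library thus held more than each dsRNA 2 library, and every Hlc library was below both controls. The level was 2.30-fold higher with dsRNA 3 than with dsRNA 2 (95% interval 2.09 to 2.52, log2 difference 1.20, SE 0.0574, adjusted p = 0.0018, edgeR). It equalled 39.0% of the control mean with dsRNA 2 (log2 difference -1.36, adjusted p = 1.89e-06) and 89.5% with dsRNA 3 (-0.16, adjusted p = 0.042, edgeR). This feature was called in all 16 of the alternative fits, which include each library left out in turn. Where a dsRNA 2 or dsRNA 3 library is left out, the lone library of that group is assumed to vary like the other groups. Its log2 difference ran from 1.17 to 1.24 and its adjusted p reached at most 0.0403.

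The transcripts beside prtp did not share its difference. Tango10, which starts 350 bases beyond it, had a log2 difference of 0.13 (adjusted p = 0.438), and Amun, 1190 bases before it, one of 0.15 (adjusted p = 0.334, edgeR). No exonic base of prtp is shared with another annotated gene. The 5 features whose log2 CPM followed prtp most closely over the 6 libraries were TppII, Pdcd4, CG4497, CG10602 and mAcon1, with Pearson coefficients from 0.9691 to 0.9856 among 8827 features. Their differences were smaller: TppII, a large serine peptidase, had a log2 difference of 0.24, Pdcd4 of 0.28 and CG4497 of 0.62, and none of the 5 was called (lowest adjusted p = 0.0729, edgeR). Likeness over 6 libraries in 3 groups mostly restates the order of the group means.

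**Figure D2:**
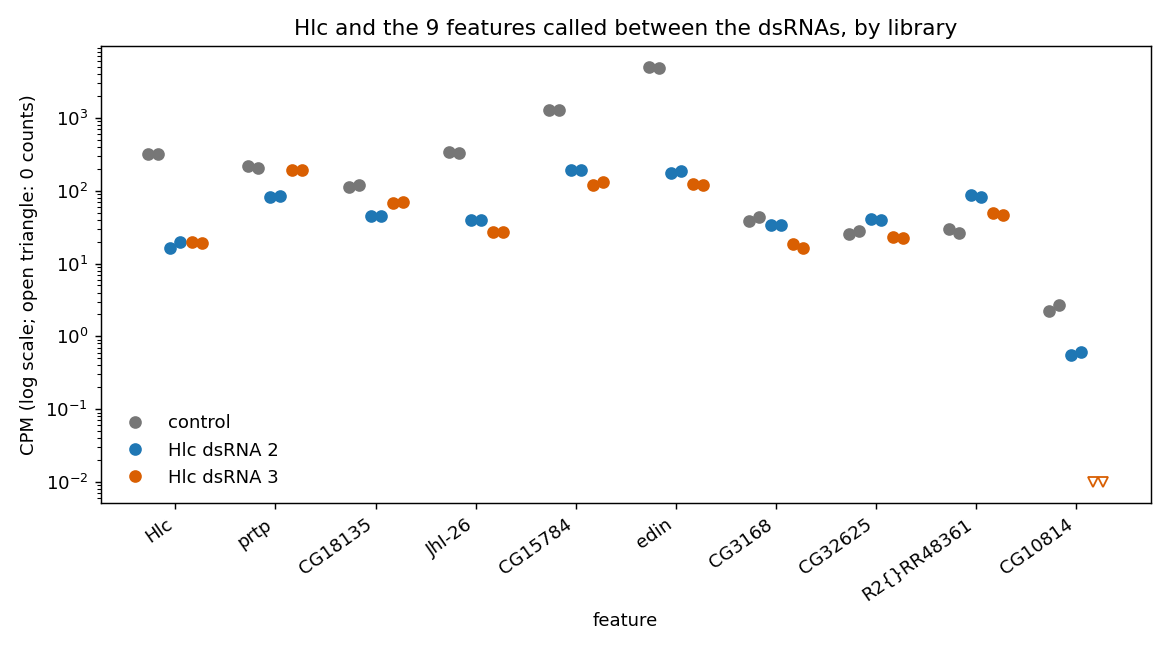
CPM on a log axis of Hlc and the 9 called features in each library, with 2 points for each of control (grey), dsRNA 2 (blue) and dsRNA 3 (orange). The orange and blue points overlap for Hlc alone; prtp with dsRNA 3 (190 CPM) lies near its controls, and CG10814 has 0 counts in both dsRNA 3 libraries, drawn as open triangles.

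The other higher feature, CG18135 (chromosome 3L, 18990026 to 18998283, minus strand), was also less far below control with dsRNA 3. It stood at 111 and 120.5 CPM in the controls, 44.4 and 45.4 CPM with dsRNA 2, and 67.8 and 69.8 CPM with dsRNA 3. The groups did not overlap, and dsRNA 3 was 1.53-fold above dsRNA 2 (log2 difference 0.62, SE 0.0604, adjusted p = 0.0406, edgeR). Of its exonic bases 6.95% are shared with CG3808, whose own difference was -0.05 (adjusted p = 0.806).

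Of the 7 lower features, 4 were below control with both reagents and further below with dsRNA 3. They are JhI-26, CG15784, edin and CG10814. JhI-26, named for its induction by juvenile hormone, was at 335 and 332 CPM in the controls, 39.2 and 39.7 CPM with dsRNA 2 and 26.99 CPM in both dsRNA 3 libraries. It was 1.46-fold lower with dsRNA 3 (log2 difference -0.55, SE 0.0459, adjusted p = 0.0398, edgeR), the smallest change among the called features. The gene (chromosome 2R, 16289320 to 16291333, plus strand) shares 70.5% of its exonic bases with an antisense RNA, asRNA:CR43730, which had a log2 difference of -0.56 (adjusted p = 0.11). The strand setting of the counting is not given in the sources used here, so the reads of these partners cannot be told apart.

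CG15784 (chromosome X, 5429571 to 5432526) was at 1271 and 1301 CPM in the controls. It was at 190.5 and 190.0 CPM with dsRNA 2 and at 121.5 and 129.9 CPM with dsRNA 3. That is 14.8% and 9.77% of control, and a 1.51-fold difference between the reagents (log2 difference -0.60, SE 0.0575, adjusted p = 0.0406, edgeR). The dsRNA 3 libraries were both below the dsRNA 2 libraries.

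The gene edin codes for a small secreted peptide made after infection, and was the one called member among the Imd and Toll immune genes. It was at 5040 and 4902 CPM in the controls, 177 and 185 CPM with dsRNA 2, and 124 and 119 CPM with dsRNA 3. These were 3.64% and 2.44% of control, and the difference between the reagents was 1.49-fold (log2 difference -0.58, SE 0.06, adjusted p = 0.0406, edgeR). The gene (chromosome 3L, 17494880 to 17495300, plus strand) lies inside Oatp74D without sharing an exon, and that gene had a log2 difference of the other sign, 0.36 (adjusted p = 0.0586). With the trend on transcript length removed, as described further on, the difference of edin was -0.33 (adjusted p = 0.0927), so its call was lost.

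CG10814 (chromosome 2R, 13375975 to 13377731, minus strand) was the one feature called at 0 counts with a reagent. Its control libraries held 107 and 161 counts, those with dsRNA 2 held 46 and 38, and both with dsRNA 3 held 0. Taking 3 counts over the dsRNA 3 group as the most that 0 allows, it was at least 31.4-fold lower than with dsRNA 2 (adjusted p = 0.0406, edgeR). This bound covers counting error only, and wider gaps than that occurred between replicates. Orc3, for example, held 1324 counts in dsRNA 2 replicate 1 and 0 in replicate 2. The bound is therefore not a firm minimum, and DESeq2 gave CG10814 no adjusted p. The nearest tested features on either side lie 11763 bases away or further and were not called.

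The remaining 3 lower features were not lost with both reagents. R2{}RR48361 is the sole copy in the table of R2, a retrotransposon that inserts into the genes for 28S ribosomal RNA (chromosome X, 23220092 to 23223699). It was at 29.8 and 26.5 CPM in the controls, 86.7 and 81.3 CPM with dsRNA 2, and 50.1 and 46.7 CPM with dsRNA 3. The element was higher than control with both reagents (log2 differences 1.58 and 0.78) and 1.74-fold lower with dsRNA 3 than with dsRNA 2 (log2 difference -0.80, SE 0.0797, adjusted p = 0.0406, edgeR). The nearest tested features, 28SrRNA-Psi:CR45859 and 18SrRNA-Psi:CR41602 before it and 28SrRNA-Psi:CR40741 and 28SrRNA-Psi:CR41609 beyond it, had log2 differences of 0.39, 0.30, 0.51 and 0.35, none called. Reads of repeated elements and ribosomal pseudogenes may be split among copies in a way that the sources used here do not state.

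CG32625 (chromosome X, 13756164 to 13756826, minus strand) was at 25.3 and 28.0 CPM in the controls, 40.8 and 40.1 CPM with dsRNA 2, and 23.3 and 22.7 CPM with dsRNA 3. It was thus above control with dsRNA 2 (log2 difference 0.60, adjusted p = 0.000621) and near control with dsRNA 3 (-0.21, adjusted p = 0.0612). The reagents differed by 1.76-fold (log2 difference -0.82, SE 0.0838, adjusted p = 0.0406, edgeR). Its call was lost with the length trend removed (-0.60, adjusted p = 0.074).

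CG3168 (chromosome X, 6720004 to 6739986, minus strand) had the opposite arrangement. It was at 37.9 and 43.0 CPM in the controls, 34.2 and 33.9 CPM with dsRNA 2, and 18.6 and 16.3 CPM with dsRNA 3. It fell from control with dsRNA 3 (log2 difference -1.22, adjusted p = 4.39e-05), while the difference with dsRNA 2 was -0.25 (adjusted p = 0.0675). The reagents differed by 1.95-fold (log2 difference -0.97, SE 0.102, adjusted p = 0.0406, edgeR).

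In all 9 called features both libraries of one reagent lay above both of the other. Passing the test makes this likely, so it is not separate evidence, and the share over all features is not given here. Under the assumption given above for a group left with 1 library, leaving out either control library, either dsRNA 2 library or dsRNA 3 replicate 2 ended each of the 8 calls other than prtp, and leaving out dsRNA 3 replicate 1 kept all 9 among 148 calls. A fit of the 4 Hlc libraries alone called prtp only, and scaling by library size alone gave 1 higher and 0 lower. None of the 9 changed sign in any alternative fit.

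Of the 9 called features 5 lie on chromosome X, as does Hlc, where 16.6% of the tested features lie. The percent called on X was 0.266, beside 0.0797 over all chromosomes. These 5 do not form a cluster: the closest pair, CG15784 and CG3168, are 1287478 bases apart, and the one nearest to Hlc, R2{}RR48361, is 1835 kb from it. Of the 9, 8 are protein-coding, 5 have no name beyond a CG number, and 1 is a transposable element.

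The features ranked just after the called ones, at the shared adjusted p of 0.0586 (edgeR), include genes with known roles, chosen here after their values were seen. The trend with transcript length described further on was not removed from the single-gene values here or in the next paragraph. Arc1 and Arc2, relatives of retrotransposon capsid genes, were lower with dsRNA 3 in both libraries, without passing the test. They lie close together on chromosome 2R, with the pseudogene CR10102 between them (log2 difference -0.35, adjusted p = 0.0586, edgeR). Arc1 was at 334 and 349 CPM with dsRNA 2 and 252 and 263.5 CPM with dsRNA 3 (log2 difference -0.41), and Arc2 at 69.6 and 77.4 against 46.2 and 38.5 CPM (-0.80). Irbp, the fly Ku70 DNA repair protein, had 45.5 and 45.4 against 34.2 and 34.5 CPM (-0.40). IscU, the scaffold for iron-sulphur clusters, had 124 and 124 against 90.4 and 81.9 CPM (-0.53).

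Among those with more RNA under dsRNA 3 were Rack1 and PCB. Rack1, a protein of the small ribosomal subunit, was at 1682 and 1725 CPM with dsRNA 2 and 2218 and 2355 CPM with dsRNA 3 (log2 difference 0.42). PCB, the pyruvate carboxylase, was at 61.9 and 60.8 against 84.2 and 84.9 CPM (0.46). Ih, a hyperpolarization-activated ion channel gene, was low in all Hlc libraries, at 0.463 and 0.426 against 1.32 and 1.04 CPM (1.39), with 16.9 and 16.4 CPM in the controls. None of these passed the threshold.

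A difference between the reagents ran with transcript length. When the features were split by exonic length into 5 groups of about equal number, the median log2 difference was -0.224 in the shortest features (43 to 1020 bases), then -0.105, -0.00484 and 0.0619, and 0.137 in the longest (4435 to 71820 bases). Across 11255 features with a length, Spearman's rho between length and the difference was 0.386, and across the 6481 features at 10 CPM or more it was 0.645. Features share their libraries, so these coefficients are descriptions and carry no p. The same kind of trend ran between replicates of a group, with rho of 0.209 for replicate 2 minus 1 in the controls, -0.149 with dsRNA 2 and 0.216 with dsRNA 3. The source of the trend was not tested. When the trend was removed from each library rho was 0.0126, and 7 features were called, 2 higher and 5 lower, with CG32625 and edin lost. List medians below are therefore given also with the trend removed, while those of transposable element families are given without this step.

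**Figure D3:**
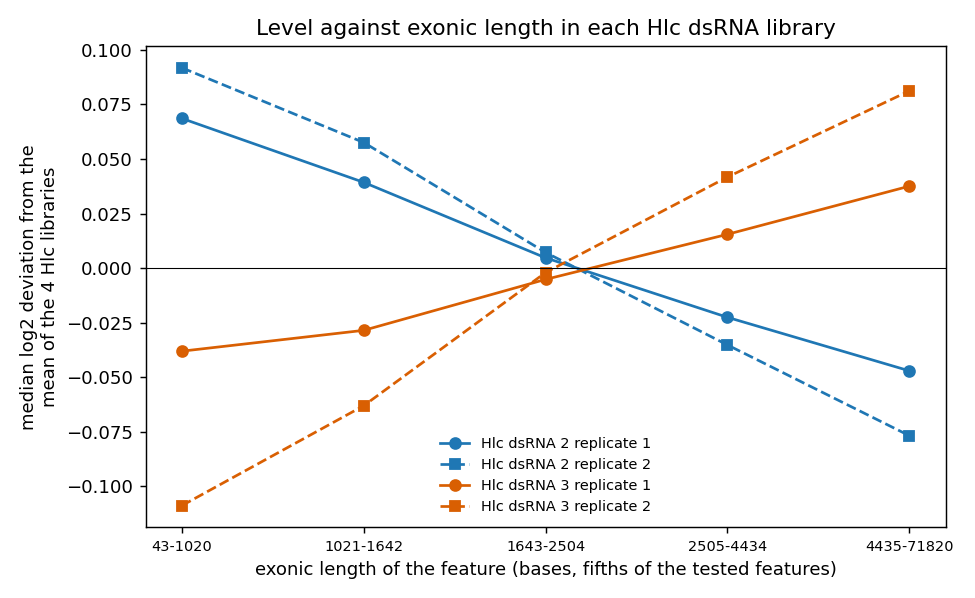
Median log2 deviation of each Hlc library from the mean of the 4 Hlc libraries, for the tested features split into 5 groups by exonic length in bases. Both dsRNA 2 libraries (blue) run downward with length and both dsRNA 3 libraries (orange) upward; replicate 2 (dashed) is steeper than replicate 1 in both groups.

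Of 28 gene lists, 25 had no called member. With 0.0797% called over all features tested, most lists of these sizes would hold none, so having none says little about a list. Beside each list stand its number at an unadjusted p under 0.05 in the edgeR test, against 9.02% higher and 11.3% lower over all features, and its median log2 difference, against -0.0014 over all features. The share at an unadjusted p under 0.05, either way, rose with level. It was 4.67% below 1 CPM, 10.8% from 1 to 10 CPM, 26.3% from 10 to 100 CPM and 40.4% above 100 CPM. Lists of abundant genes are therefore better set beside the share for their level. Members named below that were not called were chosen after their values were seen, and the length trend was not removed from their single-gene values.

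Genes that handle dsRNA had no called member. Of 18 genes of the small RNA machinery, 5 were higher and 0 lower at an unadjusted p under 0.05, and the median difference was 0.116 (0.0147 with the length trend removed). DESeq2 called 3 of them higher and limma-voom called 0. Dcr-2, the Dicer that makes short interfering RNAs, was at 154 and 149 CPM with dsRNA 2 and 177.5 and 184 CPM with dsRNA 3 (log2 difference 0.25, adjusted p = 0.122, edgeR). AGO2, the Argonaute that carries them, was at 732 and 699 against 787 and 865.5 CPM (0.21, adjusted p = 0.186). All 18 intervals lay within 2-fold, beside 98.4% of all tested features from 10 to 100 CPM and 99.4% above 100 CPM. Of 18 genes of dsRNA uptake, such as the clathrin heavy chain gene Chc, 4 were higher and 2 lower at an unadjusted p under 0.05, with a median of 0.0265 (-0.0135 with the length trend removed) and 3 calls by DESeq2 and 0 by limma-voom. In the antiviral and JAK-STAT list of 21 genes, 4 were higher and 4 lower at an unadjusted p under 0.05 (median 0.00838, or -0.0736 with the length trend removed), with 5 calls by DESeq2 and 1 by limma-voom.

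Heat shock genes, among the stress-responsive genes the study asked about, had no called member between the reagents. Of 19 heat shock genes 0 were called by edgeR, 3 were higher and 2 lower at an unadjusted p under 0.05, and the median difference was -0.00616 (-0.0163 with the length trend removed), with 1 call by DESeq2 and 0 by limma-voom. The 3 higher were Hsp68, Hsp67Bc and Hsp67Ba. Hsp67Bc and Hsp67Ba were near the floor, with 0 counts with dsRNA 2 against 7 and 3, and 4 and 16, with dsRNA 3. The summed level of the list was 2171 and 2181 CPM with dsRNA 2, and 2201 and 2149 CPM with dsRNA 3, against 11330 and 11050 CPM in the controls. Most of the sum in the Hlc libraries was Hsp83, at 1519 and 1520 CPM with dsRNA 2 and 1581 and 1529 CPM with dsRNA 3. Hsp70Bb, the Hsp70 copy highest in the controls (1112 and 1135 CPM), was at 0.951 and 1.23 against 0.994 and 1.03 CPM. The sum thus does not describe the Hsp70 copies. Hsp26, a small heat shock chaperone, was at 2.83 and 2.81 against 1.93 and 2.41 CPM (log2 difference -0.36, adjusted p = 0.133, edgeR), with 767 and 775 CPM in the controls. Hsp68, of the Hsp70 family, was at 17.9 and 18.0 against 19.2 and 20.1 CPM (0.13, adjusted p = 0.208).

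In the list of 40 Imd and Toll immune genes the called member was edin, and 3 were higher and 14 lower at an unadjusted p under 0.05. The median difference was -0.121 (-0.0502 with the length trend removed). DESeq2 called 1 higher and 10 lower, and limma-voom 1 and 4. Several antimicrobial peptide genes were lower in both dsRNA 3 libraries without passing the test, and those given below fell most. Others differed less or were higher: CecB by -0.15, AttC by -0.05 and CecA2 by 0.31 in log2 (adjusted p = 0.254, 0.852 and 0.507, edgeR). The length trend was not removed from these single-gene values. Drs, the antifungal drosomycin gene, was at 26.3 and 26.5 CPM with dsRNA 2 and 16.5 and 11.6 CPM with dsRNA 3 (log2 difference -0.92, adjusted p = 0.0615, edgeR). Mtk, for metchnikowin, was at 1.74 and 1.69 against 0.948 and 0.583 CPM (-1.21, adjusted p = 0.0705). Def, for defensin, was at 0.951 and 0.869 against 0.459 and 0.45 CPM (-1.004, adjusted p = 0.0586). In the controls these 3 genes were at 845 and 792, 124 and 114.5, and 27.7 and 27.5 CPM. The Toll ligand gene spz was on the other side, at 323.5 and 332 against 388 and 422 CPM (0.30, adjusted p = 0.0777).

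Of 48 genes of glutathione and oxidative stress 0 were called, with 3 higher and 14 lower at an unadjusted p under 0.05 and a median of -0.116 (-0.0256 with the length trend removed). DESeq2 called 3 higher and 8 lower, and limma-voom 1 and 3. GstE6, a glutathione transferase gene, was at 175 and 181 CPM with dsRNA 2 and 119 and 96.3 CPM with dsRNA 3 (log2 difference -0.72, adjusted p = 0.0586, edgeR). The regulator cnc, the fly Nrf2, had 41.2 and 38.4 against 47.9 and 54.0 CPM (0.36, adjusted p = 0.0992). Of 8 metal response genes 1 was lower at an unadjusted p under 0.05, the zinc transporter gene ZnT63C (log2 difference -0.23, adjusted p = 0.0883, edgeR). The median of the list was -0.0775 (-0.0414 with the length trend removed), and DESeq2 and limma-voom each called 1 member lower.

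Hypoxia and glycolysis genes leaned the other way. Of 19 genes 0 were called, 8 were higher and 0 lower at an unadjusted p under 0.05, and the median was 0.194 (0.146 with the length trend removed), with 7 higher calls by DESeq2 and 1 by limma-voom. Gapdh1, a glycolytic dehydrogenase gene, was at 332 and 329 CPM with dsRNA 2 and 399 and 408 CPM with dsRNA 3 (log2 difference 0.29, adjusted p = 0.0705, edgeR). The gene sima, for the fly HIF-1 alpha, was at 69.6 and 65.1 against 79.7 and 93.1 CPM (0.36, adjusted p = 0.0937). Ldh, lactate dehydrogenase, was at 96.3 and 86.5 against 106 and 116 CPM (0.28, adjusted p = 0.122), with 6196 and 6370 CPM in the controls.

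The gene prtp belongs both to the engulfment list and to that of folding and stress in the endoplasmic reticulum, and was the one member called in each. Of 25 engulfment genes 9 were higher and 2 lower at an unadjusted p under 0.05, with a median of 0.0755 (-0.00169 with the length trend removed). DESeq2 called 6 higher and 1 lower, and limma-voom 2 and 1. The receptor gene drpr, whose product binds Pretaporter, was at 392 and 393 CPM with dsRNA 2 and 422 and 450 CPM with dsRNA 3 (log2 difference 0.15, adjusted p = 0.178, edgeR). Itgbn, an integrin beta subunit used in phagocytosis, was at 16.1 and 16.4 against 11.0 and 10.1 CPM (-0.62, adjusted p = 0.0586). The list thus held members on both sides.

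Of 28 endoplasmic reticulum genes 10 were higher and 0 lower at an unadjusted p under 0.05, and the median of 0.0793 was 0.0878 with the length trend removed. DESeq2 called 10 higher and limma-voom 4. Hsc70-3, the chaperone BiP, was at 698.5 and 675 CPM with dsRNA 2 and 821 and 849 CPM with dsRNA 3 (log2 difference 0.28, adjusted p = 0.0904, edgeR). Cnx99A, a calnexin, was at 212 and 216 against 264 and 249.9 CPM (0.26, adjusted p = 0.0777). The difference of prtp, 1.20, was several times that of any other member of this list, the next being Thor at 0.40 (adjusted p = 0.123).

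**Figure D4:**
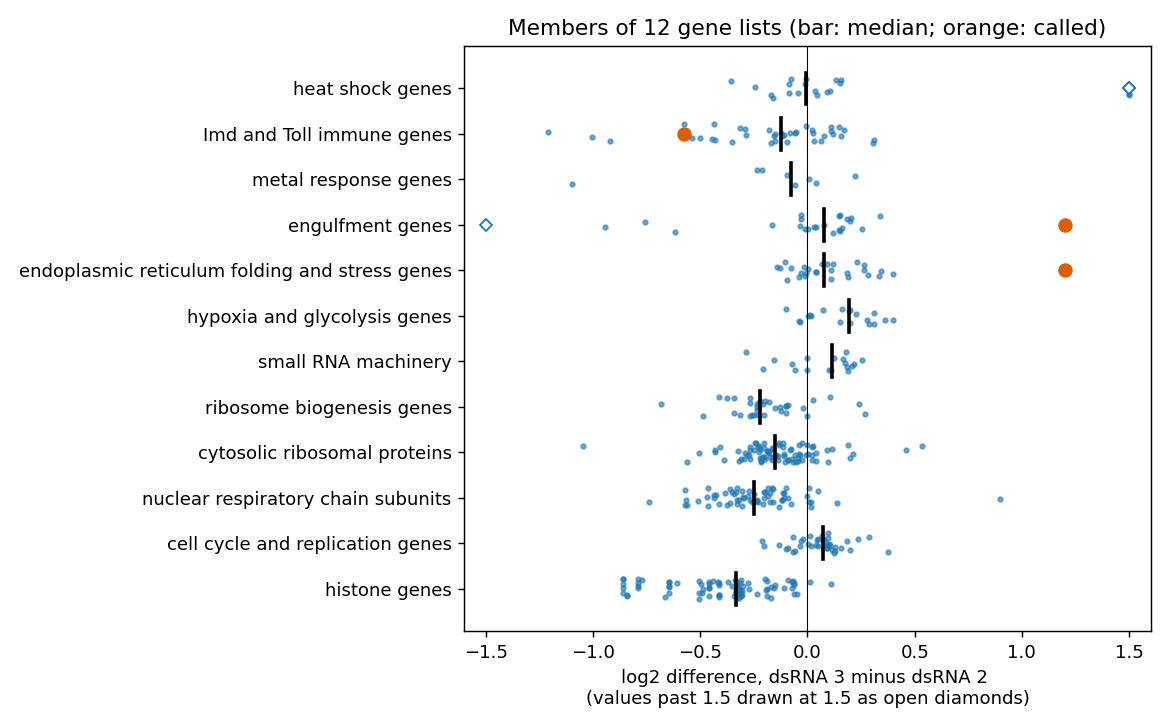
Log2 difference of dsRNA 3 minus dsRNA 2 for each tested member of 12 gene lists, with the list median as a bar and called members in orange (edin in the immune list; prtp in both the engulfment and the endoplasmic reticulum list). Medians run from -0.333 for histone genes to 0.194 for hypoxia and glycolysis genes; open diamonds are members past 1.5 either way, all of low counts.

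Ribosome biogenesis and nuclear respiratory chain genes had medians below 0, also with the length trend removed. Of 35 ribosome biogenesis genes 0 were called by edgeR, 2 were higher and 19 lower at an unadjusted p under 0.05, and the median was -0.222, or -0.193 with the length trend removed. DESeq2 called 2 higher and 16 lower, and limma-voom 0 and 3. The nucleolar gene nclb was at 121 and 119.8 CPM with dsRNA 2 and 101 and 92.8 CPM with dsRNA 3 (log2 difference -0.31, adjusted p = 0.0791, edgeR). Of 65 nuclear respiratory chain genes 0 were called, 1 was higher and 38 lower at an unadjusted p under 0.05. Their median of -0.251 was -0.107 with the length trend removed. DESeq2 called 26 of them lower and limma-voom 1. ND-ACP, an acyl carrier subunit of complex I, was at 236 and 249 against 208 and 184 CPM (-0.31, adjusted p = 0.0929).

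For 85 cytosolic ribosomal protein genes the median of -0.15 was 0.00381 with the length trend removed, and 4 were higher and 13 lower at an unadjusted p under 0.05, with 0 called by edgeR, 9 by DESeq2 and 2 by limma-voom. The largest difference upward was that of RpL3, at 1585 and 1698 CPM with dsRNA 2 and 2414 and 2335 CPM with dsRNA 3 (log2 difference 0.53, adjusted p = 0.0586, edgeR), with 5989 and 5273 CPM in the controls. RpL22 came next, at 838 and 873 against 1154 and 1199 CPM (0.46, adjusted p = 0.0615). Of their exonic bases 21.0% in RpL3 and 34.3% in RpL22 are shared with another gene. The 85 histone genes had the lowest median of the lists, -0.333, or -0.104 with the trend removed. Histone copies are near-identical, replication-dependent histone messages mostly lack poly(A) tails, and 23 of the 85 had an interval within 2-fold. At an unadjusted p under 0.05, 0 were higher and 2 lower, with 2 calls by DESeq2 and 0 by limma-voom. The 18 mitochondrially encoded features had 0 calls by edgeR, DESeq2 or limma-voom and 0 at an unadjusted p under 0.05 (median -0.0573, or 0.097 with the length trend removed).

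All 40 cell cycle and replication genes had intervals within 2-fold, near the share over all features at most of their levels. That share was 98.4% from 10 to 100 CPM and 99.4% above 100 CPM. Of the 40 genes, 6 were higher and 1 lower at an unadjusted p under 0.05, with a median of 0.0718 (0.0631 with the length trend removed). DESeq2 called 3 of them higher and limma-voom 1. CycB3, a mitotic cyclin, was at 31.9 and 33.2 CPM with dsRNA 2 and 43.4 and 41.1 CPM with dsRNA 3 (log2 difference 0.38, adjusted p = 0.0883, edgeR). Of 12 lipid genes 5 were higher and 1 lower at an unadjusted p under 0.05, with a median of 0.0284 (0.00623 with the length trend removed) and 0 called by edgeR, 6 by DESeq2 and 4 by limma-voom. ACC, acetyl-CoA carboxylase, was at 368 and 362 against 447 and 454 CPM (0.30, adjusted p = 0.0615), and FASN1, fatty acid synthase, at 1412 and 1330 against 1706 and 1680 CPM (0.30, adjusted p = 0.0865). The 26 tested DEAD-box helicases, Hlc among them, had all intervals within 2-fold and a median of -0.0152 (-0.035 with the length trend removed), with 2 higher and 1 lower at an unadjusted p under 0.05, 2 calls by DESeq2 and 1 by limma-voom. Among them Rm62 was at 1119 and 1064 against 1274 and 1321 CPM (0.25, adjusted p = 0.101).

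The remaining lists also had no called member. Proteasome genes had 2 higher and 8 lower of 32 at an unadjusted p under 0.05 (median -0.0741), JNK and TNF genes 4 and 1 of 12 (0.0737), and cell death and p53 genes 1 and 1 of 14 (-0.0147). EGF receptor pathway genes had 3 and 0 of 17 (0.0402), and ecdysone response genes 1 and 1 of 15 (0.0735). With the length trend removed the medians of these 5 lists were 0.0186, -0.00167, -0.0253, -0.0107 and -0.0183. DESeq2 called 4, 3, 1, 3 and 1 of their members, and limma-voom called 0 in each.

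The labels describe the line as embryonic, and its hemocyte markers were checked in the same comparison. Of 13 plasmatocyte markers, which mark the phagocytic blood cells of the fly, 5 were higher and 1 lower at an unadjusted p under 0.05 (median 0.134, or 0.00232 with the length trend removed), with 4 calls by DESeq2 and 0 by limma-voom. Their summed level was 11600 and 11400 CPM with dsRNA 2, 12510 and 12070 CPM with dsRNA 3, and 6560 and 6213 CPM in the controls. Most of this sum was Col4a1 and vkg, at 4974 and 3946 CPM in dsRNA 2 replicate 1 and 2752 and 2340 CPM in control replicate 1. The sum therefore does not stand for the whole list, and crq, srp and He were below control with both reagents. The defining marker Hml was under 1 CPM in every library. Of 9 lamellocyte markers, 1 was higher and 2 lower at an unadjusted p under 0.05, and DESeq2 called 3 and limma-voom 1. The median was -0.021 (-0.0394 with the length trend removed), and the summed level ran from 1042 to 1055 CPM over the Hlc libraries. Most of this sum was cher and mys, with log2 differences of 0.13 and -0.09, so it does not stand for the whole list. These 2 genes were at 434 and 463 CPM in dsRNA 2 replicate 1, and 1058 and 622.5 CPM in control replicate 1. Of the 2 tested crystal cell markers, Men-b had a log2 difference of 0.24 and was higher at an unadjusted p under 0.05, and lz was under 1 CPM throughout. Their median was 0.198 (0.142 with the length trend removed), with 1 call by DESeq2 and 0 by limma-voom. Markers of ovarian, germline and neuronal cells (11 tested) summed to between 120.2 and 138 CPM in the Hlc libraries, with 2 higher and 0 lower at an unadjusted p under 0.05 and a median of 0.0977 (-0.0775 with the length trend removed). Markers of fat body and muscle (5 tested) summed to between 6.42 and 7.49 CPM, with 0 at an unadjusted p under 0.05 and a median of -0.0346 (-0.0555 with the length trend removed). DESeq2 and limma-voom called 0 in both. The part of cell type makeup in the differences was not tested, and in these bulk libraries fewer cells of a type cannot be told apart from less RNA per cell.

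Transposable elements were tested copy by copy, and R2 was the one called among 1376 copies (0.0727%). Copies of a family share reads, so their agreement is not independent evidence. All 27 tested copies of blood, an LTR retrotransposon, had differences above 0, with a median of 0.373. Their summed level was 3943 and 3833 CPM with dsRNA 2 and 5132 and 5348 CPM with dsRNA 3, against 1675 and 2116 CPM in the controls. All 11 copies of diver were also above 0 (median 0.474), with summed levels of 2186 and 2015 against 2766 and 3043 CPM. In copia 32 of 34 copies were below 0 (median -0.335), at 32120 and 30930 against 27140 and 23720 CPM. For invader4 6 of 7 were below 0 (median -0.58), at 186 and 185 against 133.5 and 120.1 CPM. No copy of these 4 families passed the test (lowest adjusted p = 0.0586, edgeR). They were chosen after their values were seen, and the median over all 1376 copies was 0.123. Families with every tested copy on one side were not rare: Tirant (20) and 17.6 (17) above 0, pogo (18) and mdg3 (14) below 0.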

How the data were processed

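The authors deposited 1 table of raw counts, in whole numbers and not normalized, by feature, with 1 column per library, per the file headers. The submitters' processing notes list Trimmomatic 0.36, TopHat2 2.1.0, StringTie 2.1.7 and build BDGP6 but not what each was used for. How reads were counted, with which strand setting, and how reads with several matches were treated is not given in the sources used here. Positions (1-based), lengths and shared exons come from an Ensembl BDGP6 annotation, which held 99.7% of the features.

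Depth was 56195472 to 84283999 counts a library. TMM factors were 1.13 to 1.16 in the Hlc libraries and 0.751 and 0.778 in the controls. No pair of replicates came near to sampling noise alone (chi-square over degrees of freedom 27.4, 31.6 and 37.9), so each library is 1 replicate. Counts passed filterByExpr and went into a single quasi-likelihood fit (edgeR 4.0.16, R 4.3.3) with 3 groups and no covariate. An SE is the absolute log2 difference divided by the square root of F. Alternatives used DESeq2 1.42.0, limma 3.58.1, other scalings and filters, a replicate block, the 4 Hlc libraries alone, a length trend removed by offsets, and each library left out.

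The members and lists were chosen with earlier results of these data known. Named features are Hlc, prtp, the 12 largest called changes each way among genes not known by a CG or CR number, the 5 smallest adjusted p each way, the 2 largest changes each way among CG or CR numbers, and up to 4 called members of each list. Size-ranked features needed a mean of 50 counts in the higher group and no overlap between the reagents. The 5 features most like prtp were taken by Pearson correlation of log2 CPM. Sequence shared with Hlc was not analysed here.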

Additional observations from a re-analysis of the deposited data

How the results depend on the processing

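Between the dsRNAs the count of 9 (2 higher, 7 lower; past 2-fold 1 and 1) moved with most choices. Library size alone, the 4 Hlc libraries alone and the replicate block each gave 1 called, 1 higher and 0 lower, with 0 lower past 2-fold. No filter gave 34 (8 higher, 26 lower; past 2-fold 3 and 2), and a filter of 1 CPM gave 107 (40 and 67; past 2-fold 3 and 5). DESeq2 gave 1228 (581 and 647; past 2-fold 4 and 6) and limma-voom 327 (119 and 208; past 2-fold 3 and 5). With the length trend removed 2 were lower past 2-fold. An adjusted p under 0.10, chosen after seeing the data, gave 433 (165 higher, 268 lower). Leaving out each library in turn gave 1 to 148 called, 1 to 26 higher, 0 to 122 lower, 1 to 6 higher past 2-fold and 0 to 12 lower past 2-fold. The most came without dsRNA 3 replicate 1. The cause of these shifts was not tested. The other scalings, DESeq2 size factors and upper-quartile factors, each gave 8 calls, without edin.

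The difference of Hlc was -0.0015 without dsRNA 2 replicate 1, the 1 reversed value, and ran up to 0.292 without being called. Leaving out 1 library took it from -0.0015 to 0.292. That of prtp was called in 16 of 16 alternatives. The other 8 called features each kept their sign and were called in 5 to 8 of 16.

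Replicate numbers did not pair the libraries (correlations of deviations -0.0446, 0.0034 and -0.0322), and the replicate block called prtp alone. The planned correction for base composition was not run. With 2 libraries a group and 3 residual degrees of freedom, the number called is the least certain value here, and below 1 CPM 3.78% of features had an interval within 2-fold.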

Other observations

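Some transcripts were listed at 0 in both libraries of one reagent and present with the other. There were 68 features with at least 20 counts over one dsRNA group and 0 in the other, 28 of them at 0 with dsRNA 3 and 40 at 0 with dsRNA 2. In 11 of the 68 all the counts came from 1 library, and 1 was called, CG10814. The filter left 28 untested, for low counts or for counts in too few libraries. Hsp67Ba, a small heat shock protein gene, had 0 counts with dsRNA 2, 4 and 16 with dsRNA 3, and 30 and 3 in the controls, a spread between replicates as wide as that between groups. Of its exonic bases 75.9% are shared with another gene, asRNA:CR43481 overlapping it most. The gene kek4, of the Kekkon family of cell surface proteins, had 14 and 9 counts with dsRNA 2, 0 with dsRNA 3, and 48 and 86 in the controls (adjusted p = 0.0777, edgeR). The nicotinic acetylcholine receptor subunit gene nAChRalpha1 had 13 and 19 counts with dsRNA 2 and 0 in the other 4 libraries (adjusted p = 0.122). Dhc16F, an axonemal dynein heavy chain gene, had 19 and 14 counts with dsRNA 3 and 0 in the other 4 libraries (adjusted p = 0.131). These genes were chosen after their values were seen, and at such counts a difference between the reagents is not separated from the spread between libraries by the test.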
